A study of Mus musculus with 2 samples.

Results

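The region described here is a window of 10000 bases on mouse chromosome 17 (mm10 build) around Rn18s-rs5, a ribosomal RNA-like gene. It begins 6354 bases before the start of that gene and ends 1797 bases past its end. The window was chosen by its number of called cytosines, so that number and the levels and contexts of these cytosines are given as a description and were not tested against other sites. All listed cytosines of any context and either strand were taken. There were 451 of them, out of 46677 listed in at least 1 library. Replicate 1 listed 291 of its 28569 sites here and replicate 2 listed 316 of its 29650. Over the genome, 0.827% and 0.767% of the tested cytosines were called, with the number tested inferred from the deposited Holm-adjusted p-values. The number of cytosines tested inside the window is not known.

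Both libraries came from cultured mouse embryonic stem cells, which are pluripotent, and form 1 group with no treatment and no control library. They were made by CLED-seq, in which 5-formylcytosine (5fC) is tagged with biotin, tagged fragments are captured on streptavidin beads, and the deaminase A3A then converts cytosines that carry no tag. A cytosine still read as C is a candidate 5fC. The level of a site is the percentage of its reads that kept the C, among captured fragments. Without a control library, unconverted cytosine cannot be told apart from modification. No label says that the replicates came from separate cultures, so spread between them may be technical. Marker genes cannot be checked in genomic DNA.

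Ribosomal RNA is transcribed from repeated genes as a long precursor, in which spacers that are later cut away surround the mature RNAs, among them 18S and 28S. The repeats lie in arrays on several mouse chromosomes that genome assemblies hold only in small part, so a read from any similar copy can align to a copy-like stretch such as this one. Many copies are silenced and carry CG methylation, and the TET enzymes oxidise methylcytosine in steps that include 5fC, which the glycosylase TDG can remove. Which copies the reads came from was not tested.

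A pair of annotated genes, as RefSeq places them on GRCm38.p6 (the mm10 sequence), touch the window. Rn18s-rs5 is listed as a pseudogene related to 18S ribosomal RNA, at 39846354 to 39848202, a length of 1849 bases. AY036118 is a long noncoding RNA gene on the minus strand, at 39848112 to 39898385, so that its far end overlaps the last 91 bases of Rn18s-rs5. The table gives no gene in the window before Rn18s-rs5. Its exons were not used here.

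The libraries were closely alike elsewhere. At 11386 sites outside the window that both listed, 71.5% had the same counts in both (95% Wilson interval 70.7 to 72.4), and 156 shared sites inside the window held 1 such site, 0.641% (0.113 to 3.54). Agreement of the replicates outside is thus not independent evidence, and at shared sites there they count as 1 sample. Inside the window the chi-square of the counts was 1.12 per degree of freedom, against 0.0461 outside. Both moved with depth: at shared sites with 50 reads or more in either library they were 2.48 inside (56 sites) and 0.374 outside (770 sites), and identical counts made up 0% and 18.6%.

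The deposited files give each called cytosine with the next 2 bases on its strand, and overlapping triplets can be joined into short stretches of sequence. The triplets of the window covered 1106 positions, 523 of them more than once, with 0 conflicts between overlapping triplets. Of these stretches, 5 are shown because they carry the sites that the results turn on. Those starting at 39843996, 39844093 and 39844157 hold sites where the replicates differed most, the one starting at 39844213 shows a run listed mainly in replicate 2, and the one starting at 39845441 lies in the 100 bases with the most shared sites. Each is the plus strand of mm10, 5′ to 3′. Capitals mark called positions, a capital C being a call on the plus strand and a capital G a call of the cytosine opposite it on the minus strand.
chr17:39843996-39844009: ccGtGcGcGcaGcG
chr17:39844093-39844116: ctGccGttGctGcGgaGCcatGtG
chr17:39844213-39844234: ggGtGtGgGtaGGCaacgGtGG
chr17:39844157-39844175: CaCaCCCcCGcGtGcGcGG
chr17:39845441-39845453: aaGtCGctcGtcG

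Most calls lay in the stretch before Rn18s-rs5 and few in the gene. No site was listed in the first 3100 bases of the window in either replicate. From the first site at 39843100 to the base before the gene, 3254 bases held 254 sites in replicate 1 and 275 in replicate 2, which is 87.3% and 87.0% of the window's sites. That is 78.1 and 84.5 sites per kb. Inside Rn18s-rs5 there were 28 and 34 sites, or 15.1 and 18.4 per kb. From its end to the last site at 39848794 there were 9 and 7. These 9 and 7 are also the sites inside AY036118, since the 91 bases that the genes share held 0. The drop in calls at the start of the gene thus appeared in both libraries. How many cytosines had 30 reads in each section is not known, so the densities do not compare rates of modification.

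**Figure D1:**
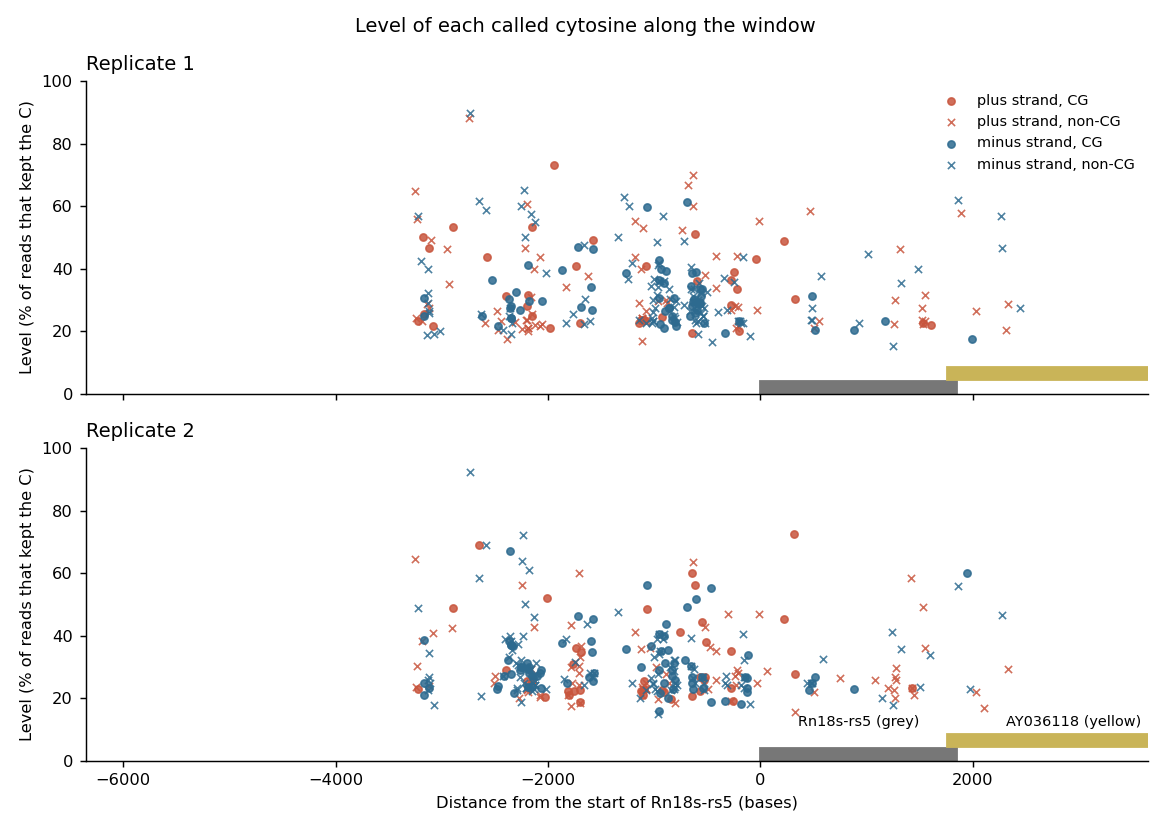
Level of each called cytosine (percent of reads that kept the C) against its distance in bases from the start of Rn18s-rs5, for replicate 1 (top) and replicate 2 (bottom), with strand by colour and CG or non-CG by symbol. Sites crowd the 3254 bases before the gene (grey bar), mostly between 20% and 40%, and thin out inside it; the yellow bar is AY036118.

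At the edges of the window the listing stopped far from the boundary. The first site inside was the same in both replicates, at 39843100 on the plus strand, at 64.9% (37 of 57 reads) and 64.4% (38 of 59). The last stood at 27.5% (14 of 51 reads) in replicate 1, and at 29.4% (30 of 102) in replicate 2, at 39848683. The nearest called site before the window lay 181999 bases away in replicate 1, at 100% of 34 reads, and 226710 bases away in replicate 2, at 25.6% of 39. After the window the nearest lay 17886 bases away in both, inside AY036118, at 35.5% (11 of 31 reads in both). The sites thus form an island whose ends do not depend on where the 10 kb window was placed, and widening it by 10 kb on both sides added no site.

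Of the 291 calls of replicate 1, 98 were CG sites, which is 33.7% (95% Wilson interval 28.5 to 39.3). Of the 316 of replicate 2, 122 were, which is 38.6% (33.4 to 44.1). Outside the window the share was 7.74% (7.44 to 8.06) and 7.87% (7.57 to 8.19). H stands for A, C or T, and 44.0% and 42.1% of the window's calls were CHH sites, with CHG sites at 22.3% and 19.3%. The intervals for CG inside and outside did not overlap. This comparison carries no test, because sites of 1 library can share reads and are not replicates. It held in each depth class shown: among sites with 30 to 39 reads the CG share was 31.5% and 35.5% inside against 6.99% and 7.12% outside, and with 50 reads or more 37.0% and 42.2% against 11.6% and 11.8%. The site-dense start of chromosome 9 (sites from 3000032 to 3036077), with 301 and 221 sites, had CG shares of 16.3% and 23.5%.

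The bases that follow the called cytosines were rich in G and C. Of the next 2 bases, 65.5% in replicate 1 and 70.3% in replicate 2 were G or C, against 45.3% and 45.5% outside the window and 34.2% and 35.3% at the start of chromosome 9. Among triplets, CGG was the most frequent, with 38 and 51 sites (13.1% and 16.1%), against 2.48% and 2.57% outside. CCG followed in replicate 1 with 32 sites and CGC in replicate 2 with 38. CAG, the most frequent triplet outside at 12% and 11.6%, made up 4.81% and 4.43% here. Among non-CG calls, 44.6% and 51.0% were followed by C, against 30.9% and 31.6% outside. The base composition of the window itself is not known here, so these shares show what was called and not a preference.

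Within the window CG and non-CG sites had nearly equal levels. The median level was 29.2% at CG and 28.4% at non-CG sites in replicate 1, and 27.3% and 26.7% in replicate 2. CHG sites stood at 29.0% and 26.7% and CHH sites at 28.1% and 26.7%. The CG median less the non-CG median, averaged over the replicates, was 0.72 points and turned to -1.30 points for sites at an adjusted p under 0.01, so it has no fixed direction. By triplet, medians ran from 23.4% at CGT to 36.7% at CAA in replicate 1, and from 23.1% at CTT to 32.5% at CTC in replicate 2. The order of the triplets was not the same in both libraries.

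Levels in the window were low for called sites. In replicate 1 they ran from 15.4% to 89.7%, with a median of 28.8% and quartiles of 23.5% and 38.8%. In replicate 2 they ran from 15.1% to 92.3%, with a median of 26.8% and quartiles of 23.3% and 35.5%. A level of at least 80% was reached by 2 sites and 1 site, 0.687% and 0.316%, against 22.3% and 21.8% of the sites outside. No site of the window kept the C in every read, in either replicate. At the start of chromosome 9 the medians were lower still, at 21.1% and 20.4%.

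Many of these levels lay at the edge of what could be called. The fewest kept reads listed in either library were 7 at a depth of 30 (23.3%), 10 at 50 (20%) and 16 at 100 (16%). Within 2 reads of the lowest listed count for their depth were 45.7% and 54.1% of the window's sites, against 23.0% and 23.3% outside. At the start of chromosome 9 the share was 56.5% and 54.8%, so it was not particular to the window. Cytosines with lower levels are not listed. The deposited p equals the binomial probability of the count itself, not of that count or more, at a background of 6.93%. By the tail, 18 and 16 of the window's sites had a probability above the largest p listed in their library.

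**Figure D2:**
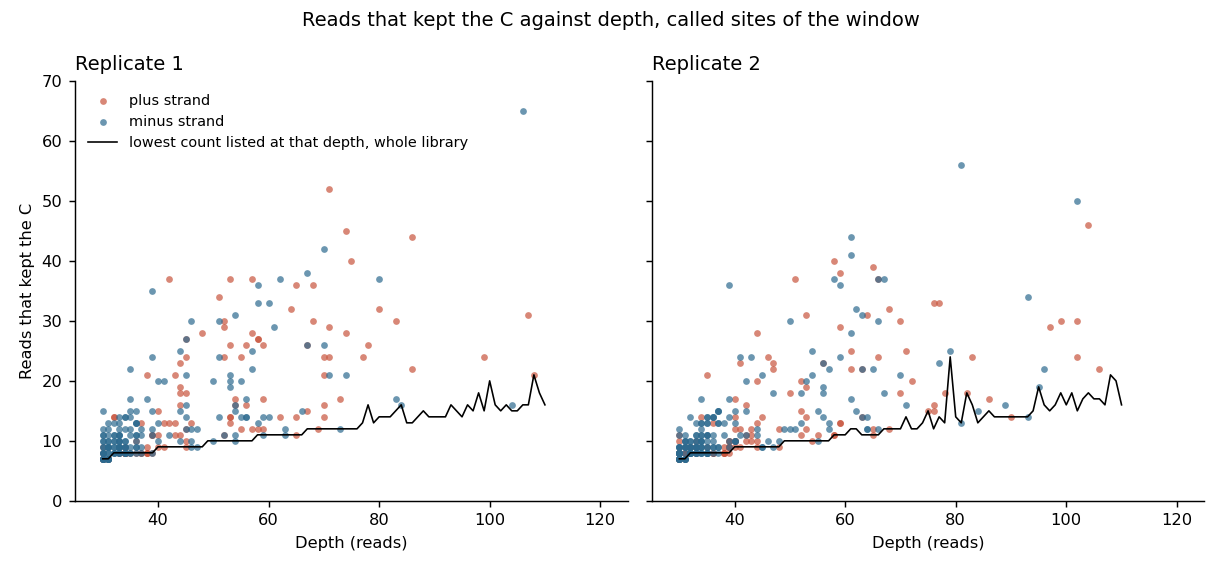
Reads that kept the C against depth in reads for each called site of the window, coloured by strand, with replicate 1 on the left and replicate 2 on the right. The black line is the lowest count listed at each depth in the whole library; a dense group of minus-strand sites (blue) sits just above it between 30 and 39 reads.

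Levels inside and outside the window stood further apart below 50 reads than above. With 30 to 39 reads, the median level inside was 27.3% in replicate 1 (149 sites) and 26.7% in replicate 2 (166 sites), against 48.4% and 47.1% outside. With 50 reads or more, it was 32.4% (100 sites) and 29.9% (102 sites), against 34.0% and 34.6%. With 40 to 49 reads, it was 31.4% and 26.5%, against 45.2% and 45%. The gap between window and genome was thus 21.1 and 20.4 points with 30 to 39 reads, 13.8 and 18.5 points with 40 to 49, and 1.55 and 4.73 points with 50 or more. Median depth was 39 reads in both replicates, with a largest depth of 108 and 106, against a median of 34 outside.

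**Figure D3:**
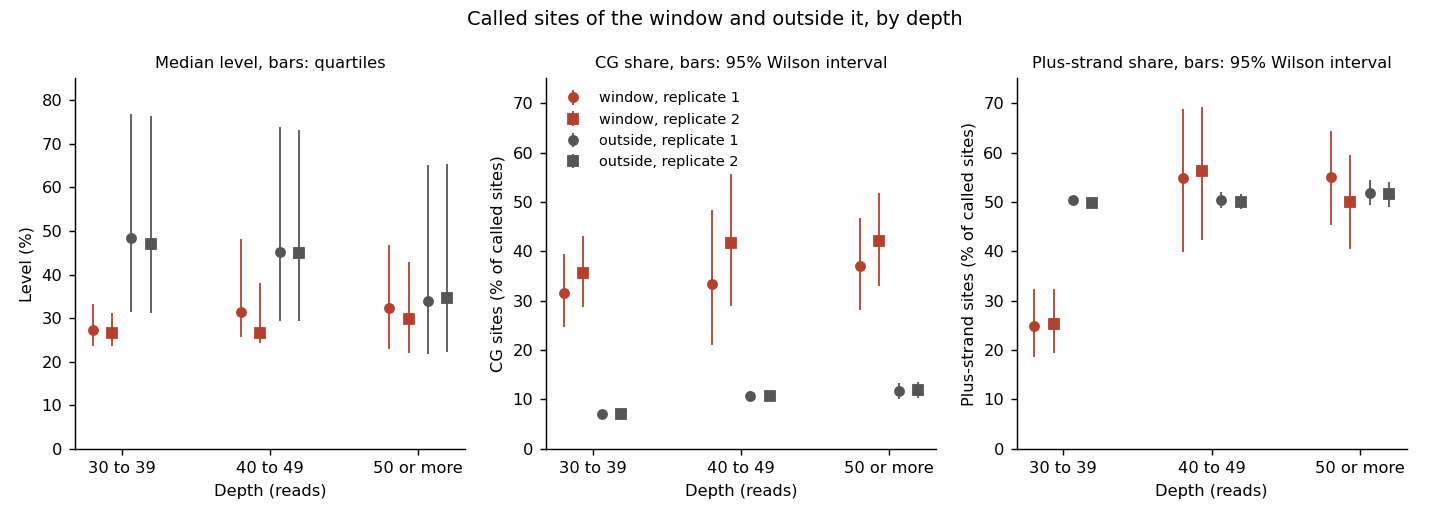
Median level with quartiles (left), share of CG sites (middle) and share of plus-strand sites (right), in percent, for called sites inside and outside the window in 3 depth classes, with 95% Wilson intervals on the shares; circles are replicate 1 and squares replicate 2. The CG share is higher inside at every depth, the level is lower inside by at least 13.8 points below 50 reads, and the strand share stands apart between 30 and 39 reads.

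Calls were uneven between strands. The plus strand held 115 of 291 sites in replicate 1, 39.5% (34.1 to 45.2), and 120 of 316 in replicate 2, 38.0% (32.8 to 43.4), against 50.4% and 49.9% outside. The surplus on the minus strand lay among shallow sites: with 30 to 39 reads 24.8% and 25.3% of sites were on the plus strand, and with 50 or more 55% and 50%. Minus-strand sites had a median depth of 35 reads in both replicates and plus-strand sites 45 and 44. Over all depths median levels hardly differed, at 29.0% and 27.3% on the minus and 28.2% and 25.8% on the plus strand. With 30 to 39 reads the minus strand was higher, at 29.0% and 27.3% against 23.5% and 24.2%. With 50 or more it stood at 29.6% and 31.6% against 33.8% and 28.9%, so the replicates went opposite ways. At the start of chromosome 9 the plus strand held 63.1% (57.5 to 68.4) and 55.7% (49.1 to 62.1) of sites. With 30 to 39 reads it held 59.5% of 37 sites there in replicate 1 and 30.8% of 26 in replicate 2. In replicate 1 the split at the start of chromosome 9 thus leaned the other way, towards the plus strand. In replicate 2 its sites with 30 to 39 reads lay mostly on the minus strand, as in the window. The interval for that plus-strand share was wide (16.5 to 50.0).

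The minus-strand sites with 30 to 39 reads lay in different places in the 2 libraries. Of 112 such sites in replicate 1, 46 lay between 39845500 and 39845999 and 9 between 39844000 and 39844499. Of 124 in replicate 2, 27 lay in the first of these bins and 41 in the second. At all depths the second bin held 18 minus-strand sites in replicate 1 and 54 in replicate 2, and the first held 55 and 34. They are the bins with the most minus-strand sites in each library and were chosen after the values were seen.

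**Figure D4:**
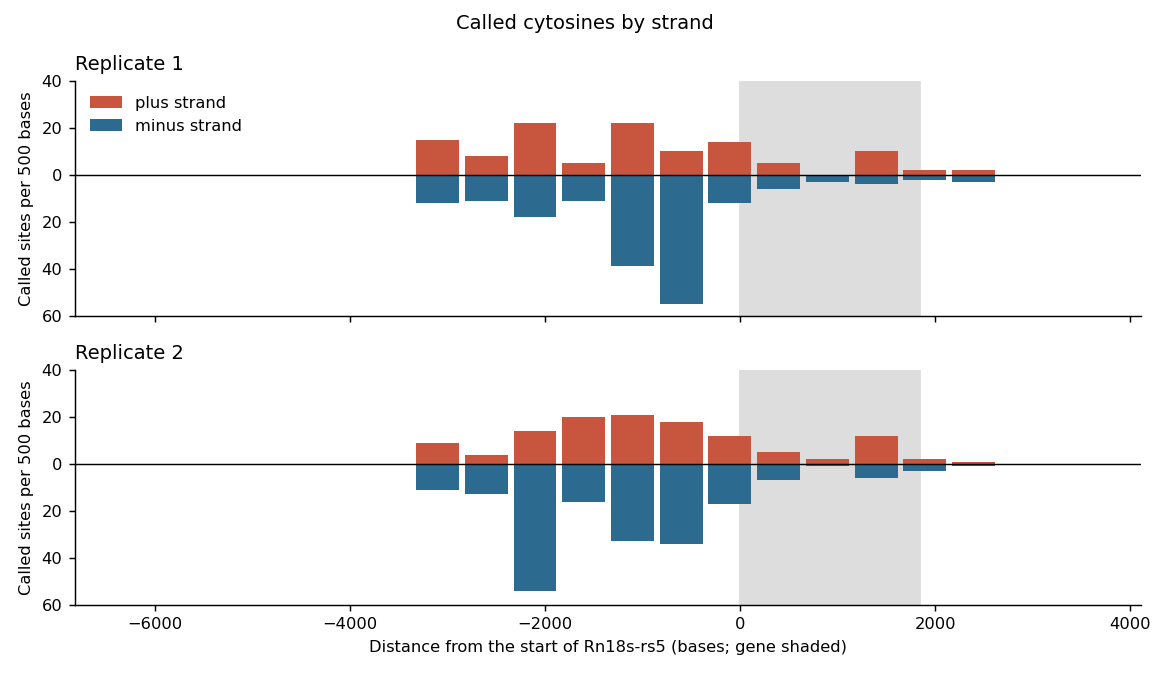
Called sites per 500 bases on the plus strand (upward) and minus strand (downward) against distance in bases from the start of Rn18s-rs5 (shaded), for replicate 1 (top) and replicate 2 (bottom). The tallest minus-strand bar holds 55 sites in replicate 1 and 54 in replicate 2, in different bins.

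Called sites lay close together. The median gap between called positions was 6 bases in both replicates, and 62.8% and 68.6% of gaps were 10 bases or less. Of consecutive sites on the same strand within 50 bases, 41.99% of 231 pairs in replicate 1 and 43.4% of 258 in replicate 2 had depths within 2 reads of each other, against 36.4% and 37.3% outside. Levels within 5 points of each other were less frequent among these pairs, at 34.2% and 43.8%, against 58.6% and 58.9% outside. In replicate 2, the sequence starting at 39844093 held minus-strand sites at its bases 3, 6 and 14 with 9 of 30 reads each, and at base 9 with 10 of 31. Such sites may come from the same reads and are not taken as separate measurements.

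Of the calls, 156 were made in both libraries, 53.6% of the sites of replicate 1 and 49.4% of those of replicate 2. Outside the window 40.3% and 38.8% were shared. Only sites at the same position count as shared. Pairs of unshared sites 91 to 120 bases apart, with 1 from each library, had near-equal counts in 79.9% of cases outside. Inside the window the share was 2.17%. The shared percentages thus do not compare how alike the libraries were inside and outside. Before Rn18s-rs5 139 sites were shared, inside it 13 and after it 4. Shared sites stood at median levels of 29.5% and 27.8%, and sites of 1 library only at 27.5% (135 sites) and 26.7% (160 sites). A site listed once may have been too shallow or just under the threshold in the other library, which the files do not show.

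The 10 shared sites with the highest lower level were led by a CHH site at 39843616 on the minus strand, 2738 bases before the gene, at 89.7% in replicate 1 (35 of 39 reads, 95% Wilson interval 76.4 to 95.9) and 92.3% in replicate 2 (36 of 39, 79.7 to 97.3). No other shared site came near it in both libraries. The next was the first site of the window, a CHG site already given. A CHG site at 39845723 on the plus strand stood at 60% (27 of 45 reads) and 63.6% (28 of 44). The CHH sites at 39843766 and 39843708 on the minus strand, both in the triplet CAA, stood at 58.8% and 69.1%, and at 61.5% and 58.5%.

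Of the 10, 3 were CG sites. The one at 39845286 on the minus strand stood at 59.7% (37 of 62 reads) and 56.1% (37 of 66). The one at 39845733 on the plus strand stood at 51.2% (44 of 86) and 56.1% (23 of 41). The third, at 39845658 on the minus strand, was also among the 5 deepest, at 61.3% (65 of 106) and 49.2% (31 of 63). All 3 lay before Rn18s-rs5. The remaining 2 of the 10 were CHH sites in the triplet CCA on the minus strand, at 39844134 (50% in both) and, past the end of the gene, at 39848215 (62.1% and 55.8%). For each of the 10 the intervals of the replicates overlapped. The 10 were picked for a high level in both libraries, so this overlap follows in part from the choice and does not measure agreement.

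The deepest site stood at the other end of the range. It was a CG site at 39845714 on the plus strand, at 19.4% of 108 reads (13.1 to 27.9) and 20.8% of 106 (14.1 to 29.4). A CHH site at 39843108 on the plus strand stood at 24.2% of 99 and 23.5% of 102 reads. Inside Rn18s-rs5, 1250 bases from its start, a CHH site at 39847604 on the minus strand stood at 15.4% (16 of 104 reads) and 18% (16 of 89). Another of the 5 deepest, a CHG site at 39843134 on the minus strand, was higher, at 56.7% of 67 and 49% of 102 reads. Deep sites thus covered both low and middle levels.

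The 100 bases with the most shared sites ran from 39845378 to 39845477, starting 976 bases before the gene. They held 21 shared sites, 18 of them on the minus strand and 10 of them CG. Most of these pairs were close: the CG site at 39845397 had 15 of 35 reads and 15 of 37, the one at 39845407 had 8 of 36 and 8 of 37, and the CHG site at 39845408 had 13 of 36 and 13 of 37. At 39845386, in the same stretch, the kept reads were 14 in both, but the depth was 34 in replicate 1 and 93 in replicate 2, and the level 41.2% and 15.1%. The site at 39845395 showed the same form, with 12 of 33 and 13 of 81 reads.

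Kept reads agreed within 1 read at 97 of the 156 shared sites (62.2%), while reads that lost the C agreed within 1 at 39 (25%) and depth at 49 (31.4%). Outside the window the 3 shares were 94.4%, 93.5% and 91.5%. At 6 sites of the window the kept reads agreed within 1 while the lost reads differed by at least 20 (3.85%), and the same held at 18 of 11386 shared sites outside (0.158%). At 39843124 on the plus strand, for example, 29 of 52 reads kept the C in replicate 1 and 30 of 99 in replicate 2. Replicate 2 was the deeper library at 97 shared sites and replicate 1 at 44.

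Levels of the 156 shared sites differed between replicates by a median of 3.26 points, and by 20 points or more at 10 sites (6.41%), against 0.132% of shared sites outside. Pearson's r across these sites, which share libraries and can share reads, was 0.667, against 0.998 outside. Over all called sites the quartiles were 23.5% and 38.8% inside against 30.3% and 76.3% outside in replicate 1. In replicate 2 they were 23.3% and 35.5% against 30.3% and 75%. A narrower spread of levels lowers r by itself, and outside the libraries count as 1 sample. The values of r are thus not comparable. Replicate 1 was higher at 95 sites, replicate 2 at 59, and 2 were equal. Mean levels were 33.4% and 31.9%.

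Each shared site was compared by a two-sided Fisher's exact test, adjusted by Benjamini-Hochberg over all 11542 shared sites of the genome. The test called 1 of the 156 sites, where 0.0260% of all shared sites were called. At an unadjusted p under 0.05 it found 11 of the 156 (7.05%), where 0.234% of all shared sites passed. Both shares over all shared sites come mostly from outside the window, where the libraries count as 1 sample. They are thus no baseline for separately drawn libraries. The called site was a CHG site at 39844104 on the minus strand, base 12 of the sequence starting at 39844093. It stood at 60% in replicate 1 (42 of 70 reads) and 18.8% in replicate 2 (12 of 64), with an adjusted p of 0.00522 by Fisher's exact test. The test compares 2 libraries and not conditions, and takes reads as independent.

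The next 4 sites by p lay up to 106 bases from it and did not pass the adjustment over all 11542 shared sites. On the plus strand, 6 bases further on in the same sequence, the site at 39844110 stood the other way, at 20.7% (12 of 58) and 56.1% (37 of 66), with p = 0.23 after adjustment in Fisher's exact test. The CHH site at 39844157, where the sequence of that start begins, stood at 60.8% (45 of 74) and 23.1% (9 of 39). At 39844126 on the minus strand the levels were 65.2% (30 of 46) and 25% (10 of 40). At 39843998, base 3 of the sequence starting at 39843996, they were 27.3% (9 of 33) and 67.2% (41 of 61). Of these 5 sites replicate 1 was higher at 3 and replicate 2 at 2, so neither library was higher throughout the stretch. Most sites in the adjustment lay outside the window, where the libraries count as 1 sample. Before adjustment the 5 had p from 1.36e-06 to 0.000249 in Fisher's exact test, and adjustment over the window alone was not made.

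**Figure D5:**
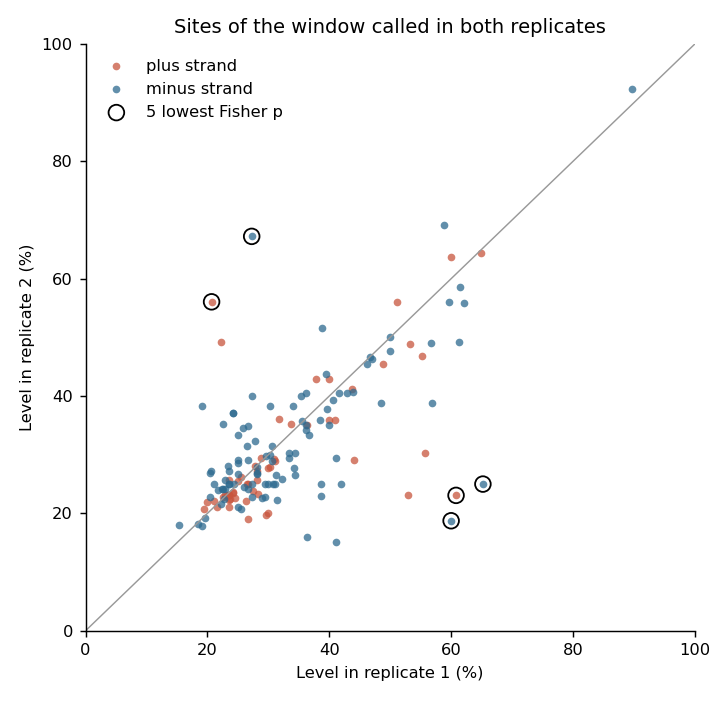
Level in replicate 2 against level in replicate 1 (both in percent) for the 156 sites of the window called in both, coloured by strand, with the line of equality and the 5 sites of lowest Fisher p circled. Most points lie near the line between 20% and 40%, and the site near 90% in both is the one at 39843616.

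The sequence starting at 39843996 shows how the replicates could differ over a run of sites. All 6 of its called positions were on the minus strand and listed in both libraries. Replicate 1 stood between 19.0% and 28.1% with a median of 25.8%, and replicate 2 between 27.9% and 67.2% with a median of 37.7%. The middle CG sites, at bases 7 and 9, had 8 of 33 reads each in replicate 1 and 13 of 35 each in replicate 2. In the sequence starting at 39844213 replicate 1 listed 2 sites and replicate 2 listed 9, and the same numbers held for the one starting at 39844093. The CHH site at base 14 of the former was in both, at 40% (32 of 80 reads) and 42.9% (33 of 77).

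CpGs are symmetric, so each can be called on both strands. In replicate 1, 5 of 93 CpGs with a call had both strands called (5.38%), and in replicate 2 7 of 115 (6.09%). One was in both lists, at 39845714 and 39845715, with the plus strand the deepest site given above and the minus strand at 29.4% (10 of 34 reads) and 22.9% (8 of 35). At 39845733, in replicate 1, the strands stood at 51.2% and 25.7% (9 of 35 reads). At 39844778, in replicate 1, they were 49.1% (26 of 53) and 46.3% (37 of 80). At 39845285, in replicate 2, they were 48.4% (31 of 64) and 56.1% (37 of 66). In replicate 2, the CpG at 39845706 had 60% for the plus strand (21 of 35 reads) and 26.8% for its partner (11 of 41).

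The other CpGs called on both strands had plus-strand levels between 19.7% and 31.5%. In replicate 1 these were 25.6% at 39843186 and 31.5% at 39844165. In replicate 2 they were 25.6% at 39844153, 22.2% at 39845232, 22% at 39845445 and 19.7% at 39845516. Minus-strand levels at these 6 CpGs ran from 25% to 41.2%. Among CHG sites, CAG and CTG can also be called on both strands. Both were called at 2 of 63 CHG sites in replicate 1 and 2 of 59 in replicate 2. These totals include 32 and 35 CCG sites, which have no CHG partner, so the shares are not comparable with those of CpGs. The CHG pair at 39845723 and 39845725 was in both libraries, with the plus-strand cytosine at 60% and 63.6% and its partner at 33.3% and 29.4%. Whether the partner of a site called on 1 strand was covered is not known.

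Sites inside Rn18s-rs5 were few, with a median level below that of the stretch before the gene. Their median level was 23.5% in replicate 1 (28 sites, 15.4% to 58.3%) and 25.4% in replicate 2 (34 sites, 15.6% to 72.5%), against 29.0% and 27.3% in the stretch before the gene. Depth was slightly higher, with medians of 43.5 and 44 reads against 38 in both. Deeper sites can be listed at lower levels, so the median levels are not compared at equal depth. CG sites were 8 of 28 and 8 of 34, or 28.6% and 23.5%, against 35% and 41.1% before the gene. The 95% Wilson intervals of gene and preceding stretch overlapped in both replicates. Between 39846922 and 39847237 replicate 1 had its longest gap, 315 bases without a call, inside the gene. After the gene, levels ran from 17.5% to 62.1% and from 16.9% to 60%.

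Other annotated ribosomal RNA genes held next to none of the calls. The RefSeq table has 83 rRNA genes and rRNA pseudogenes, most of them for 5S RNA. Of these, 7 in replicate 1 and 8 in replicate 2 had a call in the gene or its 2 kb flanks (8.43% and 9.64%). Rn18s-rs5 itself is among them, and the locus was chosen for its calls. Over all pseudogenes the share was 5.95% and 6.32%. Rn18s-rs5 was the only one with a site inside it. Around the 5S genes n-R5s130 and n-R5s131 the flank held 1 site in each replicate, at 11 of 58 reads. The positions were not the same, 123591761 in replicate 1 and 123591762 in replicate 2. The 83 are short, with a median length of 119 bases against 910 for all pseudogenes, so the shares are not at equal length. Neighbours can share a flank, as n-R5s130, n-R5s131 and Gm26391 did here.

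Genes for making ribosomal RNA stood near the background. Of 30 listed genes, 27 matched protein-coding symbols, and 10 in replicate 1 and 12 in replicate 2 had a site in the gene or its 2 kb flanks (37.0% and 44.4%), against 39.4% and 40.3% of all protein-coding genes. Polr1a, the largest subunit of RNA polymerase I, held 3 sites in each. Rrn3, an initiation factor of that polymerase, held 2 and 3, and Taf1b, a subunit of its promoter factor, 3 and 1. Nop58, a core protein of box C/D snoRNPs, held 2 in each, of which the site at 59696052 on chromosome 1 stood at 94.9% (37 of 39 reads) in both. Ubtf, which encodes the rDNA-binding factor UBF, held 1 site, in its flank and in replicate 2 alone, at 90.9% (30 of 33 reads). The single CG site among the list was in Ttf1, the polymerase I termination factor gene, at 23.3% (7 of 30 reads) in replicate 1.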

How the data were processed

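The authors deposited, per the file headers, the counts of reads that kept the C and that did not, and their sum, for each called cytosine, with a p-value and 2 adjusted p-values (Holm, Benjamini-Hochberg). Named in the submitters' processing notes, without role or order, are Bismark 0.23.1, Bowtie2 2.4.5, cutadapt 4.1, SAMtools, FastQC 0.11.9 and the mm10 build. Whether duplicates were removed is not given in the sources used. The files list sites that had 30 reads or more and an adjusted p under 0.05, and reads at listed sites of the window summed to 13236 and 14502.

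Levels, 95% Wilson intervals and matching by chromosome, position and strand were computed in Python 3.11.15 with pandas 2.3.3 and scipy 1.17.1. Counting error is all that intervals and Fisher tests cover, since PCR reads without molecular identifiers are not independent molecules. Fisher's test was tested on simulated data that drew the 2 libraries independently, which the libraries outside the window are not. Named sites are the 10 highest, 5 lowest in Fisher p and 5 deepest shared sites, edge sites, the 100 bases with the most shared sites, and sites called on both strands. The window, lists and rules were chosen with earlier results of these data known. Alternatives were stricter thresholds, depth, a level minimum, a wider window, each replicate alone, other tests and shared sites only.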

Additional observations from a re-analysis of the deposited data

How the results depend on the processing

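Restriction to sites listed in both libraries was chosen after seeing the data, and the other alternatives were planned. Over the results on the window, 34 alternatives left a value within the SD of the replicates, within its interval or within 1.5 times of a count, and 31 did not. Each replicate alone lies within that SD of the mean by construction. The median depth was equal in both replicates, so any change in it counted as outside. These numbers are thus not a measure of robustness. Where sites had to reach an adjusted p below 0.01, the median level was 31.2%, the share inside Rn18s-rs5 9.18%, the median of CG less that of non-CG sites -1.30 points, the median depth 42.5, shared sites 103 and sites differing by Fisher's test 0 (5 at an unadjusted p under 0.05). Under 0.001 these were 36.9%, 8.66%, -2.76 points, 48, 63 and 0 (2 unadjusted), with a plus-strand share of 40.2% and 151.5 called sites per library. At a depth of at least 50 they were 31.1%, 11.9%, -1.26 points, 61, 37 and 2 (4 unadjusted), with a plus-strand share of 52.5%, 101 called sites and identical counts at 0%. The second site called there was 39844110 (adjusted p = 0.0147, Fisher's exact test). With a level of at least 20% the median depth was 38, and 0 sites differed (8 unadjusted), because the called site has a level under 20% in replicate 2. The stricter adjusted p thresholds left it out as well. Over sites listed in both libraries the plus-strand share was 35.3%, the share inside the gene 8.33%, the difference 0.997 points, the median depth 39.5 and the number of sites 156. The depth-weighted level was 32.6%. Stricter thresholds remove low levels and sites by construction. Holm adjustment and the chi-square test also called 1 site. The CG share lay between 33.7% (replicate 1 alone) and 39.6% (depth of at least 50) over all settings. No paired analysis was possible because the libraries form 1 group.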

Other observations

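Some sites listed in only 1 library lay near a site listed only in the other, and such pairs had near-equal counts in a larger share outside the window than inside it. At 91 to 120 bases, 2356 of 2950 pairs with 1 site from each library had both counts within 1 read outside the window (79.9%), against 7 of 322 inside it (2.17%). At 1 to 5 bases the shares were 76.0% of 958 pairs outside and 6.56% of 61 inside. Within a single library, near-equal pairs at 1 to 5 bases made up 36.4% of 55 and 31.6% of 79 inside the window, and 25% of 112 and 40.3% of 67 outside. The pairs inside the window are not independent, since many share a site, and the cause was not tested.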
